A study of Homo sapiens with 16 samples.

Results

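The HOX cluster genes were followed in MDA-MB-231 and in MDA-MB-436, both of them mesenchymal lines from triple-negative breast cancer. Members were all protein-coding genes whose symbol is HOXA, HOXB, HOXC or HOXD followed by a number. The rule gave 39 genes, all present among the 57820 genes of the count tables, of which 19404 were protein-coding. HOXA holds 11 members, HOXB 10, HOXC 9 and HOXD 9. No measured value entered the rule.

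HOX genes encode homeodomain transcription factors that set position along the body axis of the embryo. Genes at the 3′ end of a cluster (low numbers) are used anteriorly and early, and genes at the 5′ end (high numbers) posteriorly and late, an order known as collinearity. Equal numbers in different clusters are paralogues. HOX proteins bind DNA with cofactors of the TALE class (PBX, MEIS and PKNOX). Polycomb complexes keep the clusters silent, Trithorax and MLL complexes keep them active, and retinoic acid, Wnt signals and CDX factors induce them in the embryo. In adult cells the set of active HOX genes is known to be kept over many divisions and to differ between tissues.

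Both lines carried 7TGP, a reporter in which Tcf/Lef sites drive eGFP next to a puromycin resistance gene, so the control sublines carried it too. Repeated sorting on eGFP gave 7TGP-POS (reporter-positive) and 7TGP-NEG (reporter-negative) sublines of each line, which were sorted populations and not stated to be single clones. Each subline was grown in low serum (0.5% FBS, day 3) or standard serum (10% FBS, day 6), with 2 replicate libraries in each of the 8 groups. Bulk RNA-seq gave 27918418 to 46044073 counts per library. The serum conditions also differed in days of culture and, by the study's methods, in library preparation and sequencer. These cannot be told apart from serum, and no test was made between serum conditions. The methods give a different basal medium for each line, so line and medium cannot be told apart either. Both serum conditions used the same sublines, so reporter status cannot be told apart from other differences between the sublines of a line. With 2 libraries a group, p-values measure the spread between these libraries. In bulk RNA, less RNA per cell and fewer cells that use a gene cannot be told apart.

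Levels are given as TPM (transcript abundance scaled by gene length and library total). Fold changes and tests come from the counts, with edgeR's quasi-likelihood test and Benjamini-Hochberg adjustment over all protein-coding genes tested in that serum condition (16069 in low and 15414 in standard serum). A gene was called when its adjusted p was under 0.05 and its log2 fold change was at least 1 in either direction, which is a 2-fold change. Errors of log2 fold changes are SE with n = 2 libraries a group. A gene was taken as at or under the floor in a group when both libraries held 3 counts or fewer, and fold changes against such a group are given as lower bounds computed with 3 counts per library. In low serum 37 members had enough counts to be tested, all but HOXB1 and HOXC12. In standard serum 36 were tested, HOXD12 being the further gene left out. Many members had counts in MDA-MB-436 alone, and passed the filter through that line.

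Marker genes were read in the same libraries. Vimentin (VIM), an intermediate filament of mesenchymal cells, was between 368.59 and 3882.42 TPM, and E-cadherin (CDH1) was at 0.15 TPM or less in all libraries. TWIST1 did not exceed the floor in MDA-MB-231, and the epithelial keratin KRT18 was at 73.87 TPM or more throughout. Summed in each library, 7 mesenchymal markers reached 586.9 to 4314.16 TPM and 7 epithelial markers 510.7 to 1818.87 TPM. The epithelial sum was therefore not low, but a sum can rest on a few members. CDH1, KRT19 and GRHL2 were at or under the floor in 7TGP-NEG cells of MDA-MB-436 in standard serum. In MDA-MB-231 in low serum all 7 were above it. Of 7 mesenchymal markers, 1 (VIM, lower) was called between sublines in MDA-MB-231 in low serum and 3 (VIM and FN1 lower, SPARC higher) in standard serum. In MDA-MB-436 2 were called in low serum (FN1 and SPARC, higher) and 1 in standard serum (SPARC, higher). Of all protein-coding genes tested, 5.9% (low serum) and 7.69% (standard serum) were called in MDA-MB-231, and 10.5% and 12.5% in MDA-MB-436. Of 7 epithelial markers, 1 (ESRP1, which fell with 7TGP-POS status of MDA-MB-231 in standard serum) was called, and DESeq2 did not call it. Of 3 receptors that are low in triple-negative lines, the estrogen receptor ESR1 was called higher in 7TGP-POS cells of MDA-MB-231 in standard serum (0 and 0 counts against 20 and 25) and the progesterone receptor PGR lower in those of MDA-MB-436 in low serum (32 and 27 against 6 and 9). Summed over 4 leukocyte markers the level was 6.3 to 14.92 TPM with CD3E at or under the floor everywhere, PTPRC was called higher in low serum in 7TGP-POS cells of MDA-MB-231 (log2 fold change 1.14), and the endothelial marker CDH5 was at 0.07 TPM or less. The part of these shifts in the HOX changes was not tested.

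The clusters lie on 4 chromosomes (GRCh37, Gencode annotation lifted to that build). HOXA is at chr7:27132612-27239710 on the minus strand, HOXB at chr17:46605888-46806112 on the minus strand, HOXC at chr12:54332615-54449814 on the plus strand and HOXD at chr2:176957449-177055635 on the plus strand. Several members overlap a neighbour on the same strand. These are HOXA3 with HOXA4 to HOXA6, HOXA9 with HOXA10, HOXB3 with HOXB4 to HOXB6, HOXB7 with HOXB8 and HOXB9, HOXC6 with HOXC4, HOXC8 and HOXC9, HOXC4 with HOXC5, HOXD3 with HOXD4, and HOXD10 with HOXD11. The study's methods name the gene quantification mode of STAR, which leaves out reads that fall on exons of more than one gene. Counts of members whose exons overlap may therefore be too low by an amount not measured here, and the split within these sets is uncertain. The methods name an earlier Gencode release for the counting, whose gene spans may differ from those listed here. HOXA7, HOXA11, HOXA13, HOXD1 and HOXD13 overlap no other member, although the first 4 of them have an antisense RNA across them.

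The upstream sequences of 5 members that carry the reporter-linked changes in MDA-MB-436 are shown, 3 close neighbours in HOXA (HOXA7, which rose, HOXA11, which fell, and HOXA9, which fell in standard serum), and the end genes of HOXD, which moved apart. Each is the 250 bases before the RefSeq transcript start on GRCh38.p14, a build other than that of the count files, written 5′ to 3′ on the gene's strand, with CG dinucleotides in capitals.
HOXA7 (chr7:27156676-27156925, minus strand): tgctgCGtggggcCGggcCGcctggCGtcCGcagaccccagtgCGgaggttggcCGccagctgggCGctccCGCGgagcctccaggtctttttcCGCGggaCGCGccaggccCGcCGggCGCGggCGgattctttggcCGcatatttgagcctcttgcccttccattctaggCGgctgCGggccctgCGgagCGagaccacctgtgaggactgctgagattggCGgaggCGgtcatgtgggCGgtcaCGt
HOXA9 (chr7:27165538-27165787, minus strand): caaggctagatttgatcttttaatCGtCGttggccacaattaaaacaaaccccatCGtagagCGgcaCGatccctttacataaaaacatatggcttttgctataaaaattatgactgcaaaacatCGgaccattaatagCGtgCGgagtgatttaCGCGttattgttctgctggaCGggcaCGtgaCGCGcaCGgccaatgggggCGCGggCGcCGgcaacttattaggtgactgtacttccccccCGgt
HOXA11 (chr7:27185233-27185482, minus strand): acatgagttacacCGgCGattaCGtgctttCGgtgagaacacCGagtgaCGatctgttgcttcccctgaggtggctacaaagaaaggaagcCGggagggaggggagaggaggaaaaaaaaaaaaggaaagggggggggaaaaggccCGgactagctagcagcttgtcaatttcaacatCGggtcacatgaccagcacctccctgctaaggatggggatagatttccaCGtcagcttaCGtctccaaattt
HOXD1 (chr2:176188418-176188667, plus strand): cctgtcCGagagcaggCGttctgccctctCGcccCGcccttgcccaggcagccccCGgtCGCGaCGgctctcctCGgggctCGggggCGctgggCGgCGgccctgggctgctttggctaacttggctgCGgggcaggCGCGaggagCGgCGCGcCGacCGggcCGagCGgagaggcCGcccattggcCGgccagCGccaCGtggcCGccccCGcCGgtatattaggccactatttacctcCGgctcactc
HOXD13 (chr2:176092471-176092720, plus strand): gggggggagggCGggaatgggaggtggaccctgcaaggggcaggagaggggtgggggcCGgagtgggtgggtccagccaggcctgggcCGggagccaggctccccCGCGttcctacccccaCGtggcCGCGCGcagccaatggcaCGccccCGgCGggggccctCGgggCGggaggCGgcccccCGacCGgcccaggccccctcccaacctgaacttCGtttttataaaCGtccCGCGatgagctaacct

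HOXA7 had 28 CG dinucleotides in this window, HOXA9 20, HOXA11 11, HOXD1 31 and HOXD13 21. RefSeq windows were matched by symbol for 20 of the 39 members, which gave 26 distinct windows with a median of 19.5 CG dinucleotides, and the median over all 34943 windows was 11. Tcf/Lef-type letters (CTTTGAT on either strand, and likewise CTTTGAA and, overlapping the core of the SOX motif, CTTTGTT) stood in 2 of the 26 HOX windows, HOXD12 and HOXB1, and in 10.0% of all windows. The nuclear receptor half-site AGGTCA (either strand) stood in 0 of 26 and in 12.1% of all windows. The PBX-HOX letters TGATNNAT (either strand) stood in 3 of 26 (HOXD11, HOXA2 and HOXB1) and in 6.49% of all windows. A match is a description of letters, and its absence from a window says nothing of the factor.

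The lines differed in how many HOX genes they used. MDA-MB-231 had 18 of 39 members above the floor in 7TGP-NEG in both serum conditions, and 16 (low serum) or 17 (standard serum) in 7TGP-POS. MDA-MB-436 had 35 members above the floor in every group except 7TGP-POS in low serum, which had 34. Of all protein-coding genes, by comparison, 24.4% to 26.3% did not exceed the floor in 7TGP-NEG cells of MDA-MB-436, and 25.3% to 30.1% in those of MDA-MB-231. In MDA-MB-231, 21 members were at or under the floor in all 4 groups. Among these were HOXA2 to HOXA7, HOXA9 to HOXA11, HOXB1, HOXB13, HOXC10 to HOXC13, HOXD8 to HOXD11 and HOXD13. In MDA-MB-436 HOXB1, HOXC12 and HOXD12 were. By position, MDA-MB-231 7TGP-NEG had 7 of 12 anterior members (numbers 1 to 4), 7 of 11 central members (5 to 8) and 4 of 16 posterior members (9 to 13) above the floor in both serum conditions. MDA-MB-436 7TGP-NEG had 11, 10 and 14.

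**Figure D1:**
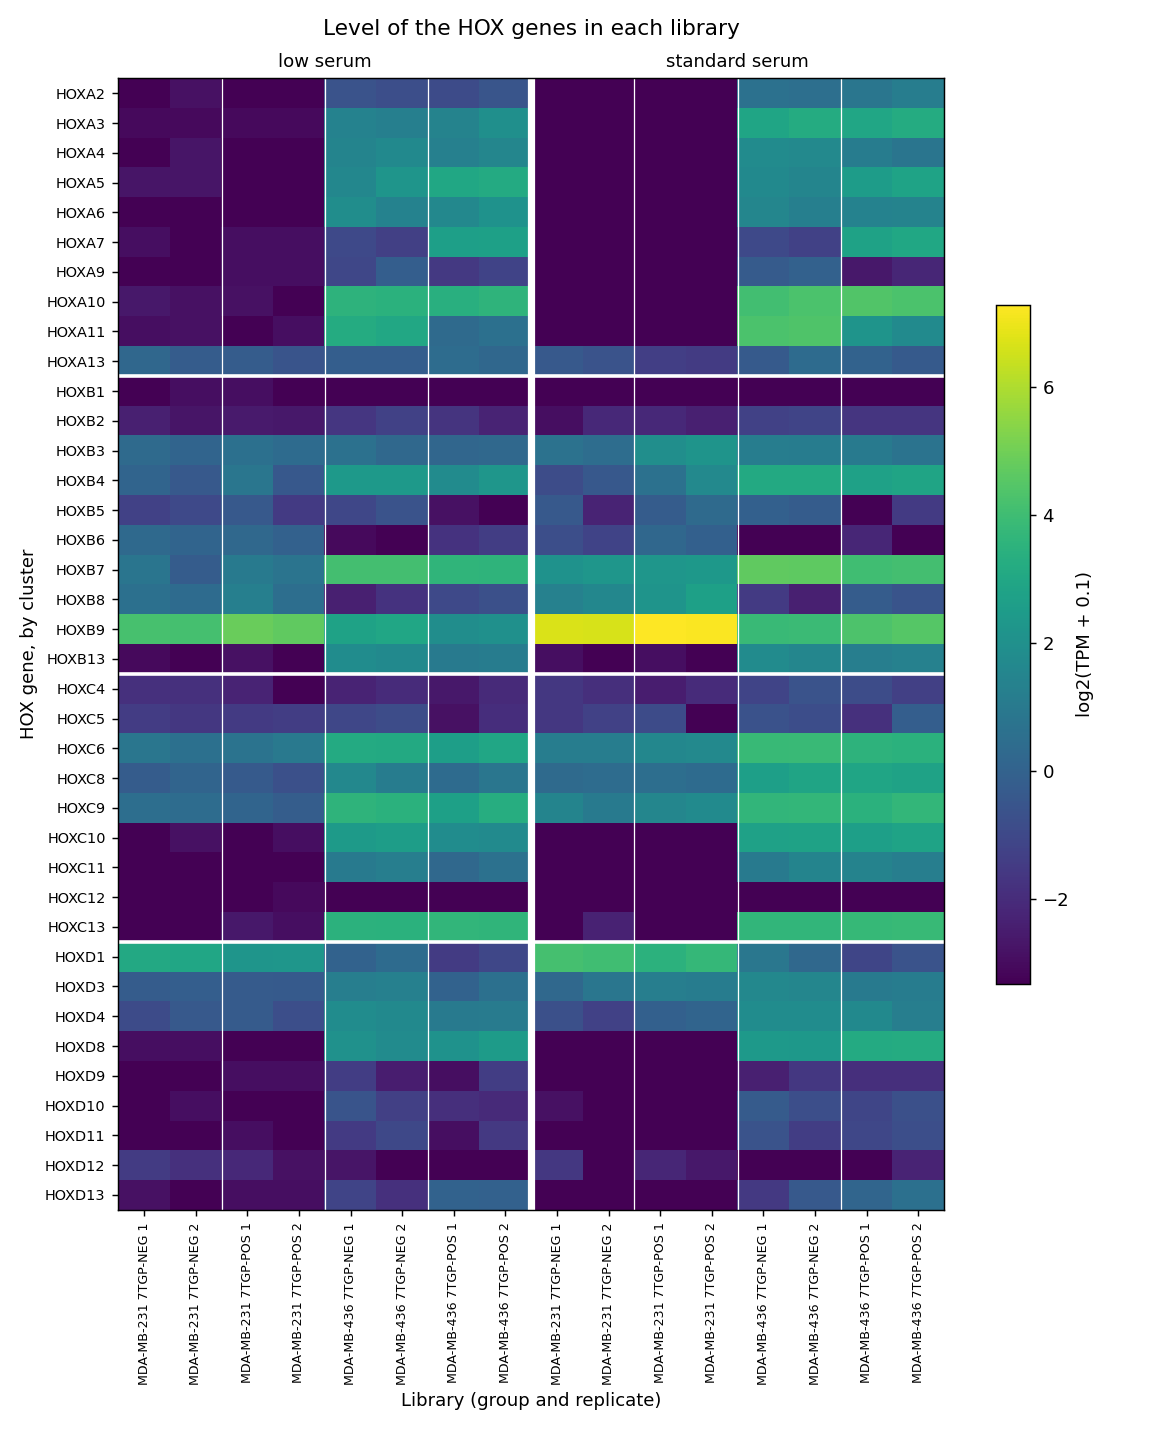
Levels of the HOX genes reported by name in the 16 libraries as log2(TPM + 0.1), genes in rows by cluster and libraries in columns by serum condition, line, reporter status and replicate. HOXA2 to HOXA11 are at the low end of the color scale in the MDA-MB-231 columns, where HOXB9 is the highest row, up to 155.43 TPM.

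Summed levels separated the lines for HOXA and HOXC, and HOXB and HOXD gave no single order. In low serum the 11 HOXA members together reached 1.26 and 0.99 TPM in MDA-MB-231 7TGP-NEG and 39.5 and 38.6 TPM in MDA-MB-436 7TGP-NEG. The HOXC members reached 4.23 and 4.08 TPM in MDA-MB-231 7TGP-NEG against 42.68 and 40.76 TPM in MDA-MB-436 7TGP-NEG. For both clusters the library values of the lines did not overlap in any group. HOXB reached 24.83 and 22.82 TPM in MDA-MB-231 7TGP-NEG and 34.76 and 35.14 TPM in MDA-MB-436 7TGP-NEG in low serum. In the other 3 comparisons HOXB was higher in MDA-MB-231. In 7TGP-POS cells grown in low serum it was at 38.02 and 31.52 TPM in MDA-MB-231 and 23.05 and 24.38 TPM in MDA-MB-436. In standard serum it was at 112.13 and 108.65 TPM in MDA-MB-231 7TGP-NEG against 56.07 and 54.41 TPM in the other line, and at 171.53 and 169.78 TPM against 47.88 and 51.55 TPM in 7TGP-POS. HOXD was the lowest cluster in MDA-MB-436, at 12.2 and 10.94 TPM in 7TGP-NEG in low serum, and came after HOXB in MDA-MB-231, at 9.86 and 9.34 TPM. For 7TGP-NEG in standard serum HOXD was higher in MDA-MB-231, at 19.49 and 18.34 TPM against 14.82 and 13.92 TPM, and in 7TGP-POS it was at 6.16 and 5.95 TPM against 8.46 and 10.84 TPM (low serum) and, with overlap, 14.45 and 16.28 TPM against 16.26 and 16.66 TPM (standard serum).

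**Figure D2:**
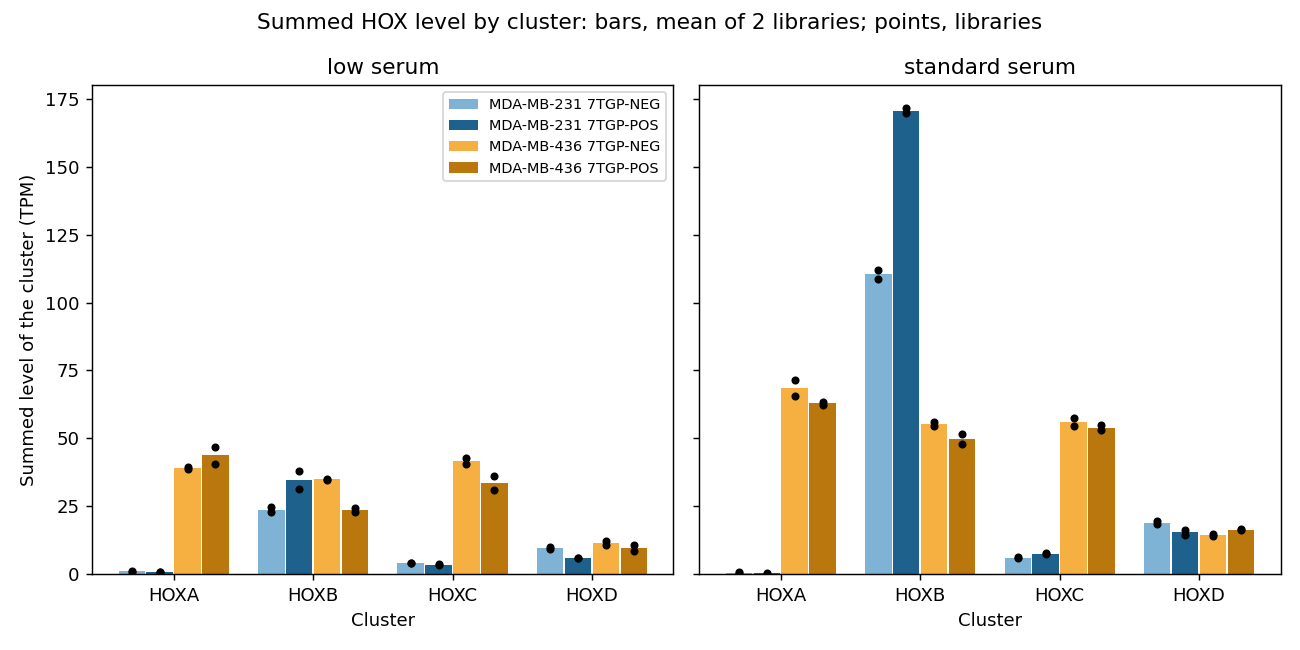
Summed TPM of each HOX cluster by group, with bars for the mean of 2 libraries and points for the libraries, in low serum (left) and standard serum (right). HOXA and HOXC are at 7.66 TPM or less in MDA-MB-231, and HOXB reaches 171.53 TPM in standard serum in 7TGP-POS cells of MDA-MB-231.

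MDA-MB-231 leaned on a single gene. HOXB9, a posterior member of HOXB, was at 18.11 and 17.71 TPM in 7TGP-NEG and 28.83 and 25.56 TPM in 7TGP-POS in low serum. In standard serum it was at 102.47 and 98.58 TPM in 7TGP-NEG and 155.43 and 148.86 TPM in 7TGP-POS. It made up 46.3% to 78.5% of the summed HOX level of the group means in this line. HOXD1, the 3′ end gene of HOXD, came next by mean level, at 8.34 and 7.61 TPM in 7TGP-NEG and 4.48 and 4.66 TPM in 7TGP-POS in low serum. In standard serum HOXD1 was at 17.62 and 16.35 TPM in 7TGP-NEG and 11.29 and 13.17 TPM in 7TGP-POS. It supplied 75.5% to 89.8% of the HOXD level. HOXB7, HOXB8 and HOXC6 followed, with mean levels over the 8 libraries of 3.03, 2.81 and 2.09 TPM. HOXA13, the 5′ end gene of HOXA, was the HOXA member above the floor in this line, at 1.07 and 0.75 TPM in 7TGP-NEG in low serum.

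MDA-MB-436 spread its HOX level over many genes, the highest making up 11.2% to 13.4% of the sum of group means. HOXB7 was at 17.11 and 17.06 TPM in 7TGP-NEG and 12.25 and 11.73 TPM in 7TGP-POS in low serum, and at 25.97 and 24.83 TPM against 16.01 and 17.08 TPM in standard serum. The sublines did not overlap for HOXB7 on the TPM scale in either serum condition. HOXA10, a posterior gene known from uterine development, was at 11.62 and 10.89 TPM in 7TGP-NEG and 10.27 and 11.83 TPM in 7TGP-POS in low serum. In standard serum HOXA10 was at 16.87 and 19.52 TPM in 7TGP-NEG and 20.79 and 19.46 TPM in 7TGP-POS. Its sublines overlapped on the TPM scale in both conditions. HOXC13, known from hair follicles and nails, was at 11.19 and 10.68 TPM in 7TGP-NEG and 12.68 and 12.13 TPM in 7TGP-POS in low serum, and at 12.55 and 12.59 TPM against 13.75 and 14.15 TPM in standard serum. HOXC9 was at 11.9 and 10.78 TPM in 7TGP-NEG and 6.46 and 9.66 TPM in 7TGP-POS in low serum, and at 12.52 and 12.84 TPM against 10.73 and 12.9 TPM in standard serum. HOXB9, the leading gene of MDA-MB-231, was among the 5 highest here as well.

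Between lines, 31 of 39 members (79.5%) were called in 7TGP-NEG cells in low serum, of which 26 had the higher level in MDA-MB-436 and 5 the lower. Of all protein-coding genes tested in that comparison 41.9% were called, and 21.4% were called higher in MDA-MB-436. In 7TGP-POS cells in low serum 27 members were called, 22 higher and 5 lower, beside 38.9% of all genes called and 20.8% called higher. In standard serum the counts were 26 higher and 4 lower in 7TGP-NEG, beside 46.7% of all genes called and 25.4% called higher. In 7TGP-POS in standard serum they were 26 higher and 6 lower, beside 45.4% of all genes called and 24.6% called higher. In these 4 comparisons 21, 18, 20 and 18 of the members called had one line at or under the floor, so bounds are given for them in place of fitted sizes.

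Members called higher in MDA-MB-436 in all 4 comparisons numbered 21. They included HOXA2 to HOXA7, HOXA10, HOXA11, HOXB4, HOXB7, HOXB13, HOXC6, HOXC9, HOXC10, HOXC11, HOXC13, HOXD4, HOXD8, HOXD10 and HOXD13. HOXA10 was at least 139-fold higher in 7TGP-NEG in low serum and at least 208-fold higher in standard serum. HOXA11, a gene of the forearm and uterus, was at least 65.7-fold and at least 141-fold higher in the same comparisons. HOXC13 was at least 88.6-fold and at least 94.7-fold higher. HOXB13, known from prostate, was at least 38.4-fold and at least 32.9-fold higher. The bound was low for members with few counts in either line, such as HOXD13 (at least 1.94-fold in low serum) and HOXA7 (at least 2.78-fold). Members expressed in both lines gave measured sizes. The log2 difference of HOXB7 in 7TGP-NEG was 3.41 ± 0.21 in low serum and 2.37 ± 0.16 in standard serum, and that of HOXC6 was 2.08 ± 0.15 and 2.55 ± 0.14.

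Lower in MDA-MB-436 in all 4 comparisons were HOXB6, HOXB8, HOXB9 and HOXD1. HOXB9 differed by -1.71 ± 0.10 (log2, edgeR adjusted p = 3.65e-19) in 7TGP-NEG in low serum and by -2.94 ± 0.09 (adjusted p = 7.69e-16) in standard serum. HOXD1 differed by -3.32 ± 0.21 (adjusted p = 5.75e-18) and -3.75 ± 0.21 (adjusted p = 6.07e-12). HOXB8 differed by -3.57 ± 0.50 and -4.11 ± 0.45. HOXB6 was at least 17.6-fold lower in low serum and at least 5.45-fold lower in standard serum. HOXB1, HOXC5 and HOXC12 were called in no line comparison, and no member was called in opposite directions in different line comparisons. Over the 39 genes, log2(TPM + 0.1) in the 7TGP-NEG cells of both lines had a Pearson correlation of 0.18 (low serum) and 0.25 (standard serum). Between sublines in low serum it was 0.98 in MDA-MB-231 and 0.87 in MDA-MB-436. These are descriptions over genes that share libraries and, in MDA-MB-231, many values at or near 0.

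**Figure D3:**
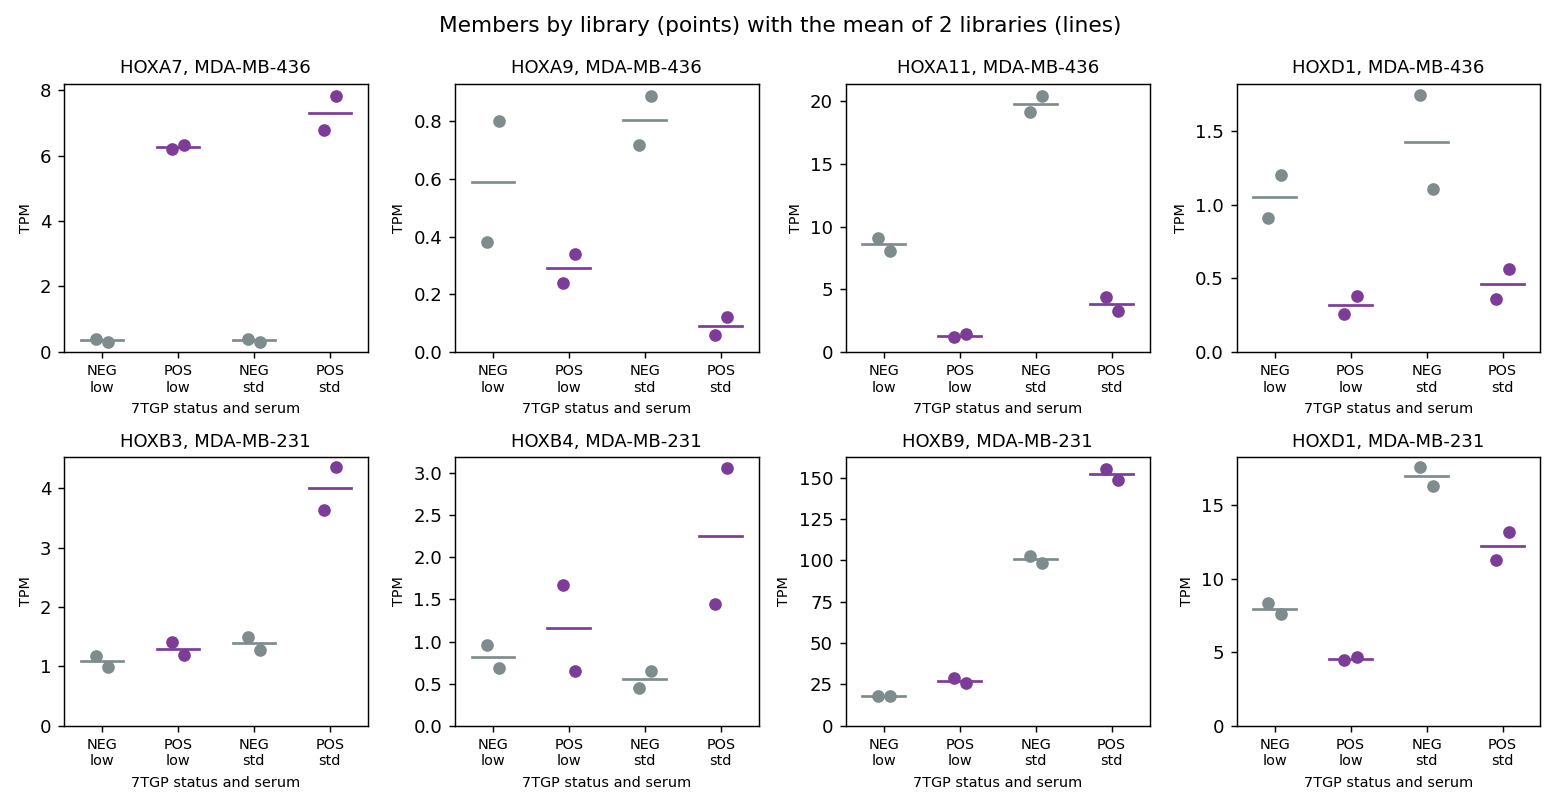
TPM (vertical axes) of single members by library, each panel naming the gene and line, with points for libraries and lines at the mean of 2 libraries. NEG and POS stand for 7TGP status and low and std for low and standard serum, and HOXA7 in MDA-MB-436 goes from 0.4 TPM or less in 7TGP-NEG to 6.2 TPM or more in 7TGP-POS.

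Within MDA-MB-436, reporter status went with large changes of single members. In low serum 8 members were called between 7TGP-POS and 7TGP-NEG (20.5% of 39), 5 higher (HOXA5, HOXA7, HOXB6, HOXB8 and HOXD13) and 3 lower (HOXA11, HOXB5 and HOXD1), beside 10.5% of all protein-coding genes tested. In standard serum 7 were called, 3 higher (HOXA7, HOXB8 and HOXD13) and 4 lower (HOXA9, HOXA11, HOXB5 and HOXD1), beside 12.5% of all genes. The 6 members called in both, 75.0% of the first set and 85.7% of the second, had the same direction in both. The libraries of the serum conditions are separate, but they come from the same sublines. No HOXC member was called in MDA-MB-436 in either. The median log2 change over members tested was -0.18 in low and -0.17 in standard serum, where the median over all genes was 0.01 and 0.00.

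HOXA7, a central member of HOXA, rose. It was at 0.4 and 0.3 TPM in 7TGP-NEG and 6.2 and 6.33 TPM in 7TGP-POS in low serum, from 10 and 7 counts against 196 and 160. In standard serum it was at 0.4 and 0.31 TPM in 7TGP-NEG and 6.8 and 7.83 TPM in 7TGP-POS. All 7TGP-POS libraries lay above all 7TGP-NEG libraries. The log2 fold change was 4.40 ± 0.27 (edgeR adjusted p = 1.25e-17) in low serum and 4.25 ± 0.29 (adjusted p = 6.19e-09) in standard serum, the largest of any member above the floor in both sublines. In fits that left out 1 library it stayed between 4.05 and 4.52. In MDA-MB-231 HOXA7 was at or under the floor in all groups.

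HOXA11, further towards the 5′ end, fell. It was at 9.08 and 8.07 TPM in 7TGP-NEG and 1.16 and 1.41 TPM in 7TGP-POS in low serum. In standard serum it was at 19.11 and 20.44 TPM in 7TGP-NEG and 4.37 and 3.25 TPM in 7TGP-POS. The groups did not overlap in either condition. The log2 fold change was -2.50 ± 0.19 (adjusted p = 2.41e-14) in low serum and -2.46 ± 0.17 (adjusted p = 8.79e-09) in standard serum.

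HOXA9, a gene best known from leukemia, lies between these and had few reads. In standard serum it was at 0.72 and 0.89 TPM in 7TGP-NEG and 0.06 and 0.12 TPM in 7TGP-POS, from 17 and 24 counts against 2 and 3, which put 7TGP-POS at least 7.57-fold lower. In low serum it was at 0.38 and 0.8 TPM in 7TGP-NEG and 0.24 and 0.34 TPM in 7TGP-POS, with a log2 fold change of -0.79 ± 0.53 (adjusted p = 0.222) that did not pass. HOXA10, which overlaps HOXA9, had log2 changes of 0.22 ± 0.10 (adjusted p = 0.0659) and 0.05 ± 0.11 (adjusted p = 0.757). HOXA5, known from lung development, was at 2.9 and 4.53 TPM in 7TGP-NEG and 7.78 and 8.94 TPM in 7TGP-POS in low serum. In standard serum HOXA5 was at 3.21 and 2.76 TPM against 5.66 and 7.09 TPM. All 7TGP-POS libraries were higher, with log2 fold changes of 1.42 ± 0.19 (adjusted p = 5.12e-08) and 1.00 ± 0.23 (adjusted p = 0.00206), the second just under 2-fold and so not called. HOXA2, HOXA3, HOXA4, HOXA6 and HOXA13 were not called in either condition, with log2 fold changes between -0.86 (HOXA4, standard serum) and 0.78 (HOXA13, low serum).

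In HOXB of MDA-MB-436 the members called were those of low level. HOXB5 was at 0.38 and 0.55 TPM in 7TGP-NEG and 0.04 and 0 TPM in 7TGP-POS in low serum, from 8 and 11 counts against 1 and 0, at least 3.11-fold lower (adjusted p = 0.00182). In standard serum HOXB5 was at 0.84 and 0.74 TPM in 7TGP-NEG and 0 and 0.25 TPM in 7TGP-POS, with a log2 fold change of -2.83 ± 0.86 (adjusted p = 0.0162). HOXB6 went from 1 and 0 counts in 7TGP-NEG to 10 and 12 in 7TGP-POS in low serum, at least 3.79-fold higher (adjusted p = 0.00016). In standard serum HOXB6 had 0 and 0 counts in 7TGP-NEG and 6 and 0 in 7TGP-POS and was not called (adjusted p = 0.077). Both genes lie inside the annotated span of HOXB3. HOXB8 was at 0.09 and 0.19 TPM in 7TGP-NEG and 0.4 and 0.5 TPM in 7TGP-POS in low serum, and at 0.25 and 0.09 TPM against 0.74 and 0.58 TPM in standard serum. Its sublines did not overlap, with log2 fold changes of 1.86 ± 0.65 (adjusted p = 0.0156) and 1.87 ± 0.58 (adjusted p = 0.0123).

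The abundant HOXB members of MDA-MB-436 changed by less than 2-fold. HOXB7 had log2 changes of -0.25 ± 0.13 (adjusted p = 0.113) and -0.72 ± 0.13 (adjusted p = 0.000167). HOXB9 was at 6.74 and 7.74 TPM in 7TGP-NEG and 3.58 and 3.95 TPM in 7TGP-POS in low serum, which was -0.69 ± 0.13 on the log2 scale (adjusted p = 1.59e-05). In standard serum it was at 14.52 and 14.96 TPM in 7TGP-NEG and 20.02 and 22.31 TPM in 7TGP-POS, which was 0.42 ± 0.09 on the log2 scale (adjusted p = 0.000675). The sublines did not overlap in either condition, and the direction was opposite. HOXB2, HOXB3, HOXB4 and HOXB13 were not called, with log2 fold changes between -0.75 (HOXB2, standard serum) and 0.01 (HOXB3, low serum).

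At the ends of HOXD the changes in MDA-MB-436 were opposite. HOXD1 was at 0.91 and 1.2 TPM in 7TGP-NEG and 0.26 and 0.38 TPM in 7TGP-POS in low serum, which was -1.47 ± 0.43 on the log2 scale (adjusted p = 0.00344). In standard serum HOXD1 was at 1.75 and 1.11 TPM against 0.36 and 0.56 TPM, which was -1.73 ± 0.35 on the log2 scale (adjusted p = 0.000511). HOXD13, a limb gene at the 5′ end, was at 0.35 and 0.18 TPM in 7TGP-NEG and 0.92 and 0.89 TPM in 7TGP-POS in low serum, which was 2.01 ± 0.49 on the log2 scale (adjusted p = 0.000672). In standard serum HOXD13 was at 0.24 and 0.67 TPM against 0.99 and 1.42 TPM, which was 1.24 ± 0.46 on the log2 scale (adjusted p = 0.0359). The sublines did not overlap for either gene. HOXD8, the highest HOXD member of this line, rose by less than 2-fold (0.63 ± 0.17 and 0.77 ± 0.17, adjusted p = 0.00166 and 0.00109). HOXD3 fell by less than 2-fold (-0.75 ± 0.18 and -0.62 ± 0.18, adjusted p = 0.000471 and 0.00879). HOXD4, HOXD9, HOXD10 and HOXD11 did not pass, and HOXD12 was at or under the floor. In HOXC, 7 of the 8 members above the floor in a subline had negative log2 fold changes in each condition (5 of 8 in standard serum on the TPM scale). HOXC13 was the exception, at 0.44 ± 0.12 (adjusted p = 0.00153) in low and 0.05 ± 0.15 (adjusted p = 0.805) in standard serum. The other 7 had fitted values between -1.81 (HOXC5, low serum, 7 and 8 counts against 1 and 3) and -0.01 (HOXC8, standard serum). Among them HOXC4, HOXC5, HOXC6, HOXC8 and HOXC9 overlap a neighbour, so they are not 7 separate observations. For HOXC5 in low serum 7TGP-POS was at or under the floor, so its fitted value is not a measured size.

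Leaving out single libraries of MDA-MB-436 ended some of these calls. HOXB8 in low serum was lost without 7TGP-NEG replicate 1 (log2 fold change 1.32, adjusted p = 0.175) or 7TGP-POS replicate 2 (1.79, adjusted p = 0.0545). In standard serum HOXB8 was lost without 7TGP-NEG replicate 2 (1.26, adjusted p = 0.155) or 7TGP-POS replicate 1 (1.65, adjusted p = 0.0903). HOXD1 in low serum was lost without 7TGP-NEG replicate 2 (-1.19, adjusted p = 0.0584). HOXD13 in standard serum was lost without 7TGP-NEG replicate 1 (0.73, adjusted p = 0.291) or 7TGP-POS replicate 2 (0.98, adjusted p = 0.179), and reached 2.17 without 7TGP-NEG replicate 2. HOXB5 in standard serum was lost without either 7TGP-NEG replicate (adjusted p = 0.0889 and 0.0607) or 7TGP-POS replicate 1 (adjusted p = 0.0909), and its fitted value was -6.94 without 7TGP-POS replicate 2, when 7TGP-POS held 0 counts. In low serum the fitted values of HOXB5 without 7TGP-POS replicate 1 (-6.17) and of HOXB6 without 7TGP-NEG replicate 1 (6.38) likewise rest on a group at 0 counts. By DESeq2 HOXD13 was called in neither condition (adjusted p = 0.051 and 0.351), and the other calls of sublines of MDA-MB-436 held. On log2(TPM + 1), of these calls HOXA5, HOXA7 and HOXA11 in low serum and HOXA7 and HOXA11 in standard serum passed. Calls gained in standard serum were HOXA5 (without replicate 1 of 7TGP-NEG, 1.11, or of 7TGP-POS, 1.14), HOXA4 (without 7TGP-POS replicate 1, -1.08) and HOXB6 (without 7TGP-POS replicate 2, adjusted p = 0.016).

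**Figure D4:**
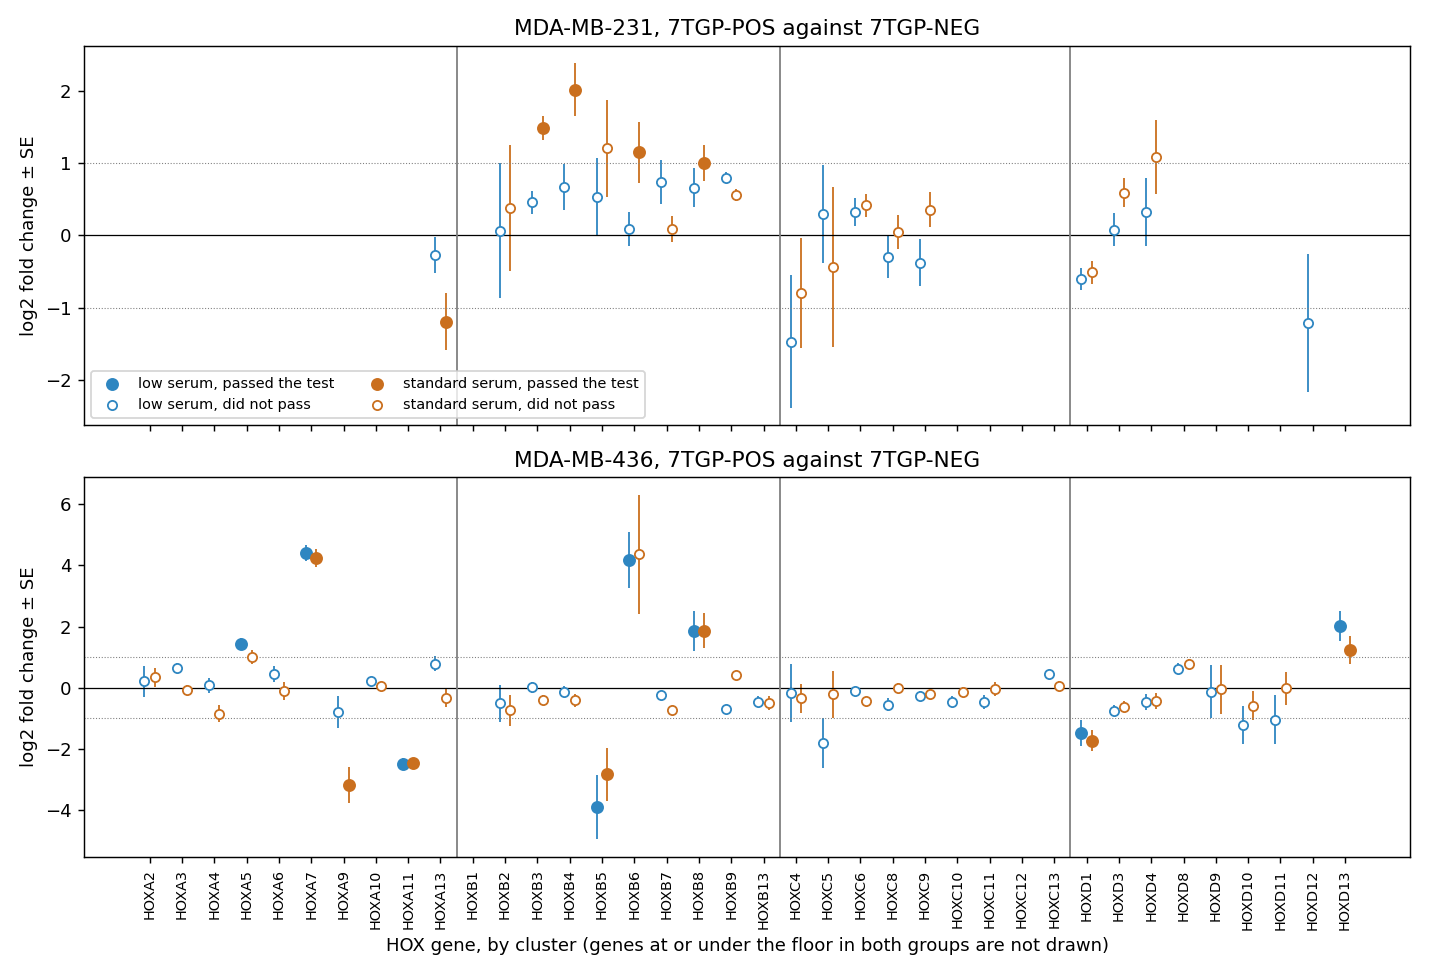
log2 fold change ± SE of 7TGP-POS against 7TGP-NEG for the HOX genes reported by name in MDA-MB-231 (top) and MDA-MB-436 (bottom), in low and standard serum as given in the key, with genes at or under the floor in both groups left out. HOXA7 stands at 4.40 and 4.25 in MDA-MB-436 near HOXA11 at -2.50 and -2.46, and the 8 HOXB members drawn in MDA-MB-231 are above 0.

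Within MDA-MB-231 the members called lay mostly in HOXB. In low serum 0 of 39 members were called by edgeR, beside 5.9% of all protein-coding genes, and DESeq2 called 0 as well. At an unadjusted p under 0.05 there were 7 members, and 5 had an adjusted p under 0.05 with less than a 2-fold change. Those 5 were HOXB9 (log2 fold change 0.80 ± 0.08, adjusted p = 8.29e-11), HOXD1 (-0.60 ± 0.15, adjusted p = 0.00118), HOXB3 (0.46 ± 0.16, adjusted p = 0.0225), HOXB8 (0.66 ± 0.27, adjusted p = 0.0475) and HOXB7 (0.74 ± 0.30, adjusted p = 0.0498). In standard serum 5 members were called, HOXB3, HOXB4, HOXB6 and HOXB8 higher and HOXA13 lower in 7TGP-POS, beside 7.69% of all genes. All 8 HOXB members above the floor in a subline had positive log2 fold changes in both serum conditions, with medians of 0.59 in low and 1.08 in standard serum, although on the TPM scale 2 of the 8 (HOXB2 and HOXB6) were negative in low serum. Several of these genes overlap, so they are not 8 separate observations.

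HOXB3, an anterior gene of the hindbrain whose annotated span covers HOXB4 to HOXB6, was at 1.5 and 1.28 TPM in 7TGP-NEG and 3.64 and 4.35 TPM in 7TGP-POS in standard serum. The log2 fold change was 1.49 ± 0.16 (adjusted p = 1.28e-06). In low serum HOXB3 was at 1.18 and 0.98 TPM against 1.4 and 1.19 TPM. HOXB4, known for expanding blood stem cells, was at 0.45 and 0.65 TPM in 7TGP-NEG and 1.45 and 3.06 TPM in 7TGP-POS in standard serum, which was 2.02 ± 0.37 on the log2 scale (adjusted p = 0.00157). In low serum HOXB4 was at 0.96 and 0.68 TPM against 1.67 and 0.65 TPM. The sublines did not overlap in standard serum for either gene, and those of HOXB4 overlapped in low serum. Both calls held in every fit that left out 1 library, with log2 fold changes of 1.36 to 1.60 for HOXB3 and 1.38 to 2.44 for HOXB4.

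HOXB8 was at 2.4 and 2.91 TPM in 7TGP-NEG and 4.42 and 6.47 TPM in 7TGP-POS in standard serum, which was 1.00 ± 0.25 on the log2 scale (adjusted p = 0.00399) on the edge of the threshold. HOXB6 was at 0.49 and 0.34 TPM against 1.06 and 0.86 TPM in standard serum, with a log2 fold change of 1.15 ± 0.42 (adjusted p = 0.048). HOXA13 was at 0.68 and 0.55 TPM in 7TGP-NEG and 0.29 and 0.26 TPM in 7TGP-POS in standard serum, which was -1.19 ± 0.40 on the log2 scale (adjusted p = 0.0268). The sublines did not overlap for any of these, but the calls were fragile. HOXB8 was lost without 7TGP-NEG replicate 1 (0.85, adjusted p = 0.0511) or 7TGP-POS replicate 2 (0.71, adjusted p = 0.0979), and came just under 2-fold without MDA-MB-436 7TGP-NEG replicate 1 or either MDA-MB-436 7TGP-POS replicate. HOXB6 was lost without any 1 of the 4 MDA-MB-231 libraries (adjusted p of 0.0881 to 0.221) or either MDA-MB-436 7TGP-NEG library (adjusted p = 0.0726 and 0.0548). HOXA13 was lost without 7TGP-NEG replicate 1 (adjusted p = 0.15) or either 7TGP-POS replicate (adjusted p = 0.0803 and 0.133). DESeq2 called none of these 3 (adjusted p = 0.0722 for HOXB8, 0.305 for HOXB6 and 0.117 for HOXA13), nor did limma on either TPM scale. HOXB5, from 13 and 2 counts against 14 and 23, was gained without 7TGP-NEG replicate 1 (adjusted p = 0.0287).

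In low serum HOXB8 was at 1.4 and 1.22 TPM in 7TGP-NEG and 2.31 and 1.33 TPM in 7TGP-POS, HOXB6 at 1.12 and 0.98 TPM against 1.09 and 0.87 TPM, and HOXA13 at 1.07 and 0.75 TPM against 0.74 and 0.57 TPM. HOXB9 rose by less than 2-fold in both conditions, with a log2 fold change of 0.56 ± 0.08 (adjusted p = 1.6e-05) in standard serum. HOXD1 fell by less than 2-fold in both, by 0.51 on the log2 scale in standard serum (adjusted p = 0.0171). HOXB7 was at 1.64 and 0.76 TPM in 7TGP-NEG and 1.91 and 1.61 TPM in 7TGP-POS in low serum, and at 4.09 and 4.65 TPM against 4.61 and 4.93 TPM in standard serum. HOXC6 was at 1.7 and 1.41 TPM against 1.53 and 1.83 TPM in low serum, and at 2.17 and 2.13 TPM against 2.86 and 3.05 TPM in standard serum, without a call. HOXD3 was at 1.1 and 1.67 TPM against 2.2 and 2.07 TPM in standard serum, which was 0.59 ± 0.20 on the log2 scale (adjusted p = 0.0333) under 2-fold. HOXB2, HOXB5, HOXC4, HOXC5, HOXC8, HOXC9, HOXD4 and HOXD12 did not pass where tested. In low serum leaving out 1 library gave a call for HOXB7 (without 7TGP-NEG replicate 1, 1.41), HOXB4 (without 7TGP-POS replicate 2, 1.11) or HOXC4 (without 7TGP-POS replicate 1, adjusted p = 0.0403).

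Whether the reporter-linked change differed between lines was tested as an interaction, the log2 fold change in MDA-MB-436 minus that in MDA-MB-231. In low serum 4 members were called (10.3% of 39), beside 11.7% of all genes. They were HOXB5 (negative, adjusted p = 0.00233), HOXB6 (positive, adjusted p = 0.000498), HOXB9 at -1.5 ± 0.15 (adjusted p = 6.86e-11) and HOXA13 at 1.06 ± 0.35 (adjusted p = 0.0114). The fitted sizes of HOXB5 and HOXB6 in low serum are not relied on, since a subline of MDA-MB-436 was at or under the floor for each. In standard serum 6 were called (15.4% of 39), all negative, beside 13.8% of all genes. They were HOXB3 at -1.88 ± 0.23 (adjusted p = 3.93e-06), HOXB4 at -2.43 ± 0.43 (adjusted p = 0.000984), HOXB5 at -4.04 ± 1.10 (adjusted p = 0.0107), HOXD3 at -1.22 ± 0.28 (adjusted p = 0.00163), HOXD1 at -1.22 ± 0.39 (adjusted p = 0.0178) and HOXD4 at -1.52 ± 0.57 (adjusted p = 0.0408). HOXB5 was called in both conditions, and in MDA-MB-231 it was at 0.31 and 0.41 TPM in 7TGP-NEG and 0.67 and 0.25 TPM in 7TGP-POS in low serum and at 0.67 and 0.11 TPM against 0.76 and 1.16 TPM in standard serum. HOXD3, an anterior HOXD gene, was at 2.25 and 2.33 TPM in 7TGP-NEG and 0.92 and 1.41 TPM in 7TGP-POS of MDA-MB-436 in low serum and at 3.01 and 2.8 TPM against 1.95 and 2.09 TPM in standard serum. HOXD4, whose annotated span overlaps that of HOXD3, was at 0.5 and 0.32 TPM against 0.84 and 0.98 TPM in MDA-MB-231 and at 3.44 and 3.47 TPM against 3.13 and 2.24 TPM in MDA-MB-436 in standard serum. The sublines did not overlap for HOXD4 in either line there, and the 2 lines moved in opposite directions. For HOXA13 in MDA-MB-436 the levels were 0.81 and 0.81 TPM in 7TGP-NEG and 1.23 and 1.08 TPM in 7TGP-POS in low serum. For HOXB3 and HOXB4 in MDA-MB-436 in standard serum they were 2.16 and 2.1 TPM against 1.89 and 1.56 TPM and 8.68 and 8.54 TPM against 6.65 and 7.16 TPM. For HOXA7 and HOXA11 the change in MDA-MB-231 rests on counts at or under the floor, so the difference between lines could not be measured.

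The interactions of HOXB3, HOXB4 and HOXB9, and those of HOXB5 and HOXB6 in low serum, held in every fit that left out 1 library. HOXB5 in standard serum was lost without MDA-MB-231 7TGP-POS replicate 2 or MDA-MB-436 7TGP-NEG replicate 1 (adjusted p = 0.052 and 0.0535). HOXD1 was lost without MDA-MB-436 7TGP-NEG or 7TGP-POS replicate 1 (-0.86 and -0.93), and HOXD3 without MDA-MB-231 7TGP-NEG replicate 1 (-0.93). HOXA13 was lost without replicate 1 of MDA-MB-231 7TGP-NEG cells (0.75), of 7TGP-NEG cells of MDA-MB-436 (0.94) or of MDA-MB-436 7TGP-POS (0.84), or replicate 2 of MDA-MB-231 7TGP-POS (0.97). HOXD4 was lost without any 1 library other than MDA-MB-436 7TGP-POS replicate 1 (adjusted p of 0.0578 to 0.156). DESeq2 did not call the interactions of HOXA13 (adjusted p = 0.113) and HOXD4 (adjusted p = 0.168), and on log2(TPM + 0.1) those of HOXA13 and HOXD1 did not pass. The fitted values of HOXB5 reached -6.71 in low serum and -8.15 in standard serum, and that of HOXB6 6.27, in fits where a group held 0 counts (without MDA-MB-436 7TGP-POS replicate 1, 7TGP-POS replicate 2 and 7TGP-NEG replicate 1). Calls gained in low serum were HOXB7 (without replicate 1 of 7TGP-NEG in either line or of MDA-MB-436 7TGP-POS, or replicate 2 of MDA-MB-231 7TGP-POS, -1.67 to -1.02), HOXB4 (without MDA-MB-231 7TGP-POS replicate 2, -1.25) and HOXD3 (without MDA-MB-436 7TGP-POS replicate 2, -1.05).

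The noncoding RNAs of the clusters were read from the same libraries. Of 18 annotated long noncoding RNAs, 7 were called in MDA-MB-436 in low serum and 4 in standard serum, beside 8.88% and 11.3% of genes of all biotypes. HOXA10-AS, antisense to HOXA9 and HOXA10, had 8 and 10 counts in 7TGP-NEG and 0 and 0 in 7TGP-POS in low serum, and 12 and 18 against 0 and 0 in standard serum, at least 2.94-fold and at least 5.53-fold lower. HOXA11-AS, antisense to HOXA11, was at 5.22 and 4.78 TPM against 1.52 and 2.58 TPM in low serum (log2 fold change -1.07 ± 0.22) and at 5.63 and 5.36 TPM against 1.83 and 2.32 TPM in standard serum (-1.52 ± 0.22). HOTAIR, a HOXC antisense RNA known for its link to Polycomb complexes, was at 0.86 and 0.86 TPM against 1.35 and 1.87 TPM (1.13 ± 0.33, adjusted p = 0.00336) in low serum and at 0.82 and 0.83 TPM against 2.61 and 2.09 TPM (1.40 ± 0.31, adjusted p = 0.000396) in standard serum. HOXC13-AS was higher in 7TGP-POS in both (1.10 ± 0.32 and 1.01 ± 0.26). The kits named in the methods keep the strand and the read orientation was checked by the authors, but whether the deposited counts used it is not stated in the sources used here. Without it, reads of a gene and of its antisense partner cannot be told apart. HOXA11 and HOXA11-AS fell together.

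HAGLROS, HOXA-AS3 and HOXC-AS1 were called higher in low serum in 7TGP-POS cells of MDA-MB-436, from at most 29 counts a library. Of the 7 low-serum calls, 2 (HOXA10-AS and HOXA11-AS) were left without 7TGP-NEG replicate 1, 3 without 7TGP-NEG replicate 2 or 7TGP-POS replicate 1, and 5 without 7TGP-POS replicate 2. In standard serum HOXC13-AS was lost without replicate 2 of 7TGP-NEG (0.88) or of 7TGP-POS (0.95). HOTAIRM1, a HOXA noncoding RNA, rose by less than 2-fold in both conditions (0.47 ± 0.16 and 0.68 ± 0.16). In MDA-MB-231, HOXA-AS3 was called lower in low serum, beside 4.9% of genes of all biotypes, from 4 and 3 counts against 0 and 0 (adjusted p = 0.0434), and the call was lost without any 1 of the 4 MDA-MB-231 libraries. In standard serum edgeR and DESeq2 called 0 of them, beside 6.94% of genes of all biotypes, and 2 (HAGLR and HOXB-AS1) had an unadjusted p under 0.05. HOXB-AS1 was called there without 7TGP-POS replicate 1 (adjusted p = 0.0416). HAGLR, across HOXD1 and HOXD3 on the other strand, was at 12.76 and 13.04 TPM in 7TGP-NEG and 8.82 and 8.21 TPM in 7TGP-POS in MDA-MB-231 in low serum. Like HOXD1 it fell there, by less than 2-fold (-0.36 ± 0.09), and in MDA-MB-436 (-0.74 ± 0.15).

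Genes of the HOX machinery were examined by list. Of 21 Polycomb group genes (20 tested) and 12 Trithorax and MLL genes (11 tested), edgeR and DESeq2 each called 0 in the 4 comparisons of sublines. Over these comparisons, 52 of 80 Polycomb tests and 16 of 44 Trithorax and MLL tests had an unadjusted p under 0.05. Other lists gave 24 of 36 (TALE cofactors), 41 of 70 (retinoic acid and CDX genes) and 10 of 28 (epithelial markers). The share of all genes at this threshold is not given here, so these counts are not read as changes of the lists. Of 9 TALE cofactors, 1 was called in low serum in each line and 2 in standard serum in each line, beside 5.9% (MDA-MB-231) and 10.5% (MDA-MB-436) of all protein-coding genes (low serum), and beside 7.69% and 12.5% (standard serum). DESeq2 called 0 in MDA-MB-231 in low serum, where the edgeR call was PKNOX2, and the same counts elsewhere. PKNOX2, a TALE partner of HOX proteins, was called higher by edgeR in 7TGP-POS in all 4 comparisons of sublines. In MDA-MB-436 PKNOX2 was at 0.13 and 0.05 TPM against 2.8 and 3.06 TPM in low serum and at 0.11 and 0.1 TPM against 2.31 and 2.26 TPM in standard serum, log2 fold changes of 5.23 ± 0.27 and 4.29 ± 0.28. In MDA-MB-231 its log2 fold change was 1.02 ± 0.40 in low serum and 3.49 ± 0.19 in standard serum. MEIS1 fell by less than 2-fold in MDA-MB-436, by 0.75 in low serum and by 0.91 in standard serum on the log2 scale.

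Of 20 retinoic acid and CDX genes, 2 of 18 tested were called in MDA-MB-231 in low serum (RARB higher, STRA6 lower) and 3 of 17 in standard serum (RARB higher, ALDH1A2 and CYP26B1 lower). In MDA-MB-436 8 of 18 were called in low serum, 5 higher and 3 lower, and 3 of 17 in standard serum. The shares of all genes called in these comparisons are those given for the TALE list, and DESeq2 called 2, 2, 7 and 2 of the list in the same order. RARB, a retinoic acid receptor that is itself a retinoic acid target, was higher in 7TGP-POS in all 4 comparisons, with log2 fold changes of 2.23 ± 0.16 and 1.86 ± 0.15 in MDA-MB-231 and 1.49 ± 0.14 and 1.01 ± 0.14 in MDA-MB-436. In MDA-MB-436 the receptor RXRG was lower in both conditions (-2.56 ± 0.10 and -2.68 ± 0.14) and CRABP1, a cellular retinoic acid binding protein, higher in both (5.79 ± 0.75 and 5.54 ± 0.80). No CDX gene was called between sublines where tested. Of the 10 nearest protein-coding genes around each cluster, 0 to 2 were called in each comparison of sublines, beside 5.9% to 12.5% of all genes. SKAP1, a neighbour of HOXB, rose in 7TGP-POS cells of MDA-MB-231 in both conditions (log2 fold changes 1.66 ± 0.38 and 2.06 ± 0.28), as did COPZ2 in standard serum (1.64 ± 0.29). Around HOXA, SNX10 fell in 7TGP-POS cells of MDA-MB-231 in both conditions (-2.47 ± 0.20 and -1.58 ± 0.23), and CREB5 rose there in low serum (1.07 ± 0.09) and in MDA-MB-436 in standard serum (1.59 ± 0.09). Around HOXD in MDA-MB-436, 0 were called in low and 1 (ATP5MC3, lower) in standard serum. The median log2 change of these 10 genes was -0.56 and -0.44, and 8 in each condition had an unadjusted edgeR p under 0.05. At that threshold stood 7 and 6 of 9 tested neighbours of HOXA, 6 and 1 of 10 of HOXB, and 4 and 3 of 8 of HOXC. The share of all genes at it is not given here. For the HOXA, HOXB and HOXC neighbours the medians in that line were -0.15 to 0.17 and 0.02 to 0.14. Whether HOXD members and their neighbours changed together was not tested.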

How the data were processed

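Bulk RNA-seq of 16 libraries was analysed, 2 in each of 8 groups defined by the sample titles. The authors aligned reads to hg19 with STAR (version 2.6.1a per the processing notes) and deposited raw counts per gene together with TPM values, while the calculation of TPM and the strand setting of the counts, made in STAR's gene quantification mode, are not given in the sources used here. The methods and the labels differ on the library kit and on the basal medium. The count files were matched to Gencode (lift to GRCh37) for symbols and biotypes. Within each serum condition, protein-coding genes whose total over its 8 libraries reached 10 counts were scaled by TMM and tested with edgeR 4.0.16 (robust quasi-likelihood, R 4.3.3), with both lines and both sublines in 1 fit per serum condition and Benjamini-Hochberg adjustment over all genes tested. Noncoding RNAs came from a fit over all biotypes. DESeq2 1.42.0, limma 3.58.1 on log2(TPM + 1) and log2(TPM + 0.1), other filters, thresholds and scalings, a replicate block and leaving out each library were alternatives. The statistics were tested on simulated data in which only genes above a minimum mean count changed, so calls from few counts were not covered. Depth was 27918418 to 32667756 counts per library in low serum and 31827130 to 46044073 in standard serum, and floors cover counting error only. Counts of replicate pairs differed by more than sampling noise. The text names every member called in a comparison of sublines or in the interaction, the 5 members highest by mean TPM in each line, and further members for completeness, with list genes named where called (MEIS1, CRABP1 and STRA6 were named after their values were seen). HOX members and gene lists were chosen with earlier results of these data known. Some genes that were counted and tested are not reported here by name or drawn gene by gene. Upstream sequences and motif shares are from RefSeq, GRCh38.p14. The low-serum and standard-serum libraries were never tested against each other.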

Additional observations from a re-analysis of the deposited data

Results flagged for a closer look

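Between the lines, the reporter-linked log2 fold change differed for 4 of 39 HOX genes in low serum and 6 in standard serum. The test was the edgeR interaction, MDA-MB-436 minus MDA-MB-231. These shares, 10.3% and 15.4%, were near the 11.7% and 13.8% of all protein-coding genes called. The low-serum differences were 1.06 for HOXA13, -4.44 for HOXB5, 4.08 for HOXB6 and -1.5 for HOXB9. In standard serum they were -1.88 for HOXB3, -2.43 for HOXB4, -4.04 for HOXB5, -1.22 for HOXD1, -1.22 for HOXD3 and -1.52 for HOXD4. HOXB5 and HOXB6 had at most 12 counts in any MDA-MB-436 library in low serum, so their fitted sizes there depend on groups at or under the floor and are not bounds.

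HOXB9 in MDA-MB-436 moved in opposite directions in the serum conditions, at -0.69 in low and 0.42 in standard serum on the log2 scale, with every 7TGP-POS library below every 7TGP-NEG library in the first and above in the second. The difference between serum conditions was not tested, and serum cannot be told apart from days of culture, library preparation and sequencer.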

How the results depend on the processing

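Of 136 recomputed counts of called genes, leave-one-out fits aside, 106 stayed within 1.5 times the reported count and 30 did not. Of 480 recomputed values of 30 single-gene calls, 401 stayed past the threshold, 79 did not, and none changed direction. With adjusted p alone, MDA-MB-231 gave 5 members in low serum (4 at 1.5-fold) and 8 in standard serum, and MDA-MB-436 18 (13 at 1.5-fold) and 14 (12 at 1.5-fold). The standard-serum count in MDA-MB-231 (5) became 3 with all biotypes, 2 by DESeq2, 3 with DESeq2 size factors, 2 on log2(TPM + 1) and 3 on log2(TPM + 0.1). On log2(TPM + 1) MDA-MB-436 gave 3 members in low and 2 in standard serum, and on log2(TPM + 0.1) the low-serum interaction gave 10. The TPM scales moved the median of all genes in low serum by -0.13 (MDA-MB-231) and -0.15 (MDA-MB-436) at a pseudocount of 1. The cause of these shifts was not tested.

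Of the noncoding RNAs, the 1 call in MDA-MB-231 in low serum became 2 with adjusted p alone and 0 by DESeq2, without a count filter, with filterByExpr, on either TPM scale and with a replicate block. The 7 in MDA-MB-436 in low serum became 1 by DESeq2, 0 on log2(TPM + 1) and 3 on log2(TPM + 0.1). In standard serum MDA-MB-231 gave 1 with adjusted p alone, and the 4 in MDA-MB-436 became 7 with adjusted p alone or at 1.5-fold, 1 by DESeq2 and 1 on log2(TPM + 1).

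Leaving out 1 library gave 0 to 1 and 2 to 4 members for MDA-MB-231 and 7 to 8 and 5 to 7 for MDA-MB-436 in low and standard serum. It gave 28 to 31 and 28 to 30 between lines in 7TGP-NEG, 27 to 29 and 30 to 32 in 7TGP-POS, and 4 to 5 and 3 to 5 interactions. For noncoding RNAs it gave 0 to 1 in MDA-MB-231 in each condition, and 2 to 7 and 3 to 4 in MDA-MB-436. A lone library was assumed to vary like the other groups.

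Replicate numbers pair nothing stated in the labels, and correlations of same-numbered deviations ran from -0.15 to 0.05 in the low-serum and from -0.02 to 0.23 in the standard-serum libraries. With the replicate block the member counts of sublines were 0 and 8 (low serum) and 4 and 7 (standard serum), the call lost being HOXB8 in MDA-MB-231, whose log2 fold change became 0.99. Depth limits the members with fewer than about 20 counts a library, HOXB5, HOXB6 and HOXA9 among them, whose sizes are bounds where a group was at or under the floor.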
